A study of Homo sapiens with 15 samples.

Results

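The mitochondrial ribosomal protein genes were taken as the gene symbols that begin with MRPL or MRPS, then a number and at most 1 letter. This rule found 78 of the 43388 genes counted in each library, 49 named for the large subunit (MRPL) and 29 for the small subunit (MRPS). The cells were A549, a cell line from a human lung adenocarcinoma, and the counts came from RNA-seq of bulk cultures. The study asked how all-trans retinoic acid (ATRA), the active form of vitamin A, alters the response of lung epithelial cells to high oxygen. Exposure lasted 72 hours, either to 95% oxygen, termed hyperoxia, or to 21% oxygen, termed normoxia, and followed 24 hours with 1e-05 mM ATRA (n = 3 libraries at each oxygen level) or ethanol vehicle (n = 2 at each). Labels of another 4 libraries, 2 at each oxygen level, name neither ATRA nor vehicle, and these are called the libraries with no named agent. A further library, whose labels disagree on its treatment, was put in no group. The labels do not say whether libraries of a group came from separate cultures, so p-values measure only the spread between these libraries.

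Mitochondria make proteins on ribosomes of their own, which translate the few messages of mitochondrial DNA, all for subunits of the respiratory chain and ATP synthase. The ribosomal RNA of these particles is transcribed inside the organelle. Every one of their proteins is encoded in the nucleus, made in the cytosol and imported. Some have relatives in bacterial ribosomes and others are found only in mitochondria. The symbol does not always match the place in the particle, because MRPS30 and MRPS18A sit in the large subunit, and MRPS36 is now known as a component of the ketoglutarate dehydrogenase complex.

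The members lie on 21 chromosomes and shared short sequences around their starts. Promoters, taken as 250 bases before to 50 bases after the RefSeq start (GRCh38.p14), were on file for 69 of the 78 members and for 15843 protein-coding genes, and motifs were searched on both strands. The ETS core CCGGAAG was present in 29 of the 69 member promoters (42%), against 14.2% of all the promoters. The YY1 core AAGATGGCG was present in 13 (18.8%), against 2.74% of all. The ETS core and the YY1 core can share the bases AAG where they adjoin. The NRF1 core GCGCATGC stood in 8.70% of member promoters and 4.26% of all, and the E-box CACGTG in 8.70% and 8.88%. A GC box (GGGCGG) stood in 60.9% and 58.5%, a CCAAT box (CCAAT) in 29% and 36.4%, and a TATA box (TATAAA) in 2.90% and 9.63%. In both subunits the ETS core was similarly frequent, at 40.5% of large-subunit and 44.4% of small-subunit symbols. It also stood in 32.9% of the promoters of cytosolic ribosomal protein genes. A match is a description of the letters and not a bound site. Sequences around the ETS core, in capitals, are shown for the 4 members that hold it among those past the test in a comparison of oxygen levels below. Each reads 5′ to 3′ on the strand of its gene, and CTTCCGG is the core read from the other strand.
MRPL33, chr2:27771701-27771727, + strand: gggccgtgccCCGGAAGcagttgttgt
MRPS21, chr1:150293840-150293866, + strand: gtaatttccgCTTCCGGtagtgagaac
MRPS23, chr17:57850042-57850068, - strand: ggagcagccgCTTCCGGttccggtagc
MRPS34, chr16:1773189-1773215, - strand: ctcttcctcgCTTCCGGccgcgaccga

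The YY1 core was held by 2 of those members, and in both the window lies just after the start of transcription.
MRPL50, chr9:101398577-101398605, - strand: gatctcatcgAAGATGGCGgcgcgatctg
MRPS30, chr5:44808950-44808978, + strand: atcgcgggcaAAGATGGCGgcggccaggt

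An E-box stood before the RefSeq starts of 3 of the members that were higher in hyperoxia. For MRPL37 and MRPL45 it lies inside the gene as placed by the GENCODE annotation.
MRPL37, chr1:54199987-54200012, + strand: cgcttcacctCACGTGaggattttcc
MRPL45, chr17:38297025-38297050, + strand: ctcccgcgagCACGTGcgcgtcctcg
MRPL49, chr11:65121933-65121953, + strand: cggctCACGTGgggaaggcca

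Of the 15 members that passed the test in at least 1 comparison of oxygen levels, 14 had a promoter on file. The ETS core was in 4 of these (28.6%), the YY1 core in 2 (14.3%) and the E-box in 3 (21.4%), beside 42%, 18.8% and 8.70% of all member promoters. These are counts of few genes, with no test. Before the start of MRPL37, the 93 bases that overlap no annotated exon held a pair of CCAAT boxes read from the opposite strand (ATTGG, in capitals). Such stretches were sought for the members with the smallest p between oxygen levels under vehicle, MRPL49, MRPS34, MRPL37 and MRPL1. MRPL49 and MRPS34 had no base free of annotated exons. The stretch of MRPL1 (250 bases, with a GC box) is not printed. The RefSeq start of MRPL37 lies inside the longer gene of the GENCODE annotation.
MRPL37, chr1:54200074-54200166, + strand: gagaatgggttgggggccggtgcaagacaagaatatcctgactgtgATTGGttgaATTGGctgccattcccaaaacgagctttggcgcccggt

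Reads counted on genes numbered between 2642377 and 5605072 per labelled library, and the limit of 3 counts corresponded to between 0.535 and 1.14 CPM, the usual counts-per-million scale. This limit covers counting error only. Values below are CPM after TMM normalization, which scales libraries so that most genes do not differ. Between 75.2% and 78.4% of the entries in the count files were not assigned to a gene. Those of the class no feature, which can hold intronic reads or reads of the other strand, made up 48.6% to 55.3%. The first hyperoxia library with no named agent stood apart. It had counts for 12657 genes, while the other 13 labelled libraries had counts for 16465 to 20108. Its mean distance from the other hyperoxia libraries on log2(CPM + 2) was 146.5, against 72.3 to 92.2 for those libraries. Members MRPL34, MRPL50, MRPL54 and MRPS18C had no count in it, and no member was at 0 in any other labelled library. Most results below with no named agent, for members, other genes and lists, are given with and without that first hyperoxia library. Of the epithelial markers, KRT8 lay between 1130 and 5896 CPM and KRT18 between 506 and 3485 CPM, whereas EPCAM did not exceed 4.78 CPM and no surfactant protein gene exceeded 1.30 CPM. Of the markers of other cell types, PTPRC stayed at or below 0.176 CPM, while CD14 reached 15.3, COL1A1 12.1 and CDH5 5.20 CPM in the highest library. Of 6 epithelial genes, 0 were higher and 4 lower in hyperoxia with vehicle, 1 higher and 4 lower with ATRA, and 0 higher and 3 lower with no named agent (4 lower without the library that stood apart). With ATRA against vehicle in hyperoxia, 5 of the 6 were higher. The part of this in the results below was not tested.

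All 78 members passed the low-count filter, with mean levels over the 14 labelled libraries from 3.96 to 111 CPM. Per kilobase of the canonical GENCODE transcript, the highest level was 109.9 CPM for MRPL12, which binds the mitochondrial RNA polymerase and forms the stalk that recruits translation factors. MRPS12, a small-subunit protein of the decoding centre, followed at 98.5 CPM per kilobase. MRPL51 stood at 98.2, MRPS24 at 96.7 and MRPL33 at 88.3 CPM per kilobase. The lowest was MRPL42 at 3.98, after MRPS31 at 5.09, MRPL50 at 5.47, MRPL23 at 5.88 and MRPL22 at 6.45 CPM per kilobase. The ratio of the highest to the lowest was 27.6. Medians were 29.1 CPM per kilobase over the MRPL genes and 19.4 over the MRPS genes. With the longest transcript as the length, 3 of the 5 highest stayed among the 5 highest. The canonical transcript of MRPL42 is annotated at 15557 bases, and MRPS24 shares its exons with the readthrough gene URGCP-MRPS24, which was assigned 104% as many counts. MRPL51 overlaps NCAPD2 on the opposite strand (185% as many counts), and MRPL33 overlaps BABAM2 on the same strand (132%).

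Together the members took 0.364% of gene counts in each of the 2 hyperoxia libraries given vehicle, against 0.391% and 0.366% in their normoxia counterparts. In the ATRA libraries they took 0.316%, 0.323% and 0.351% in hyperoxia and 0.301%, 0.310% and 0.326% in normoxia. Shares in the libraries with no named agent were 0.305% and 0.333% in hyperoxia and 0.348% and 0.351% in normoxia. On these shares the vehicle libraries were highest, hyperoxia and normoxia overlapped under ATRA, and both hyperoxia libraries were lower with vehicle and with no named agent. That order depended on the scaling, because the summed CPM of the members overlapped between hyperoxia and normoxia under all 3 agents (with no named agent 2988 and 3507 in hyperoxia, and 3577 and 3505 in normoxia). In bulk cultures such as these, fewer cells of a kind and less RNA per cell cannot be told apart. The ratio of MRPL to MRPS counts lay between 1.42 and 1.55 in the 7 hyperoxia libraries and between 1.30 and 1.46 in the 7 normoxia libraries, ranges that overlap.

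**Figure D1:**
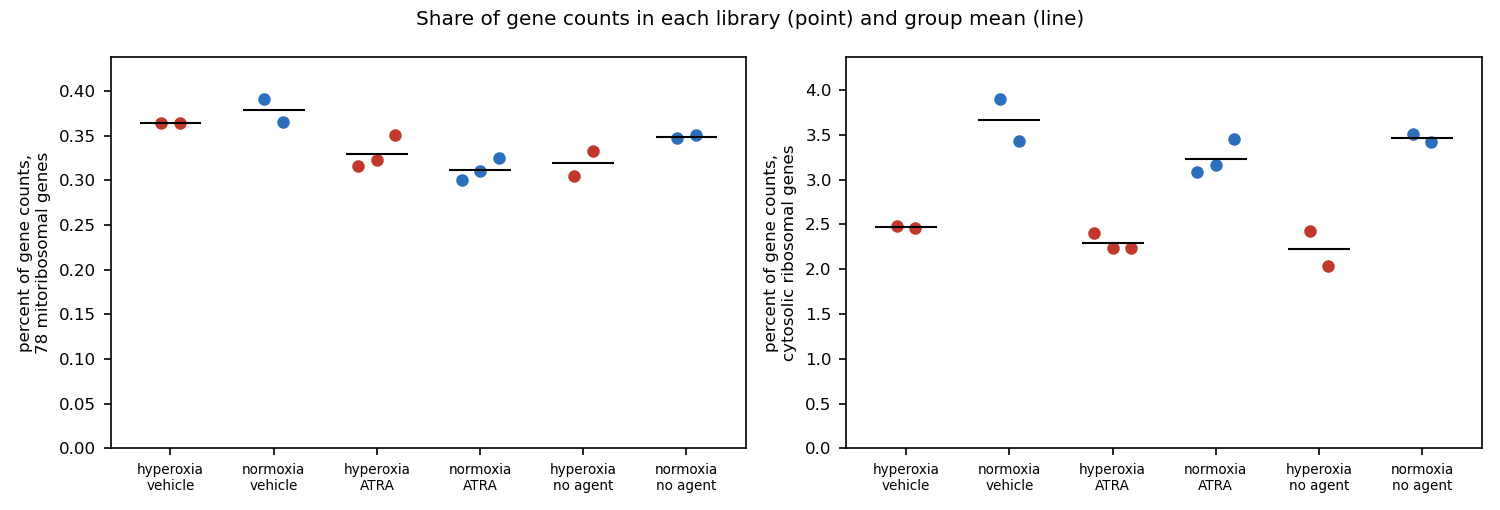
Percent of the gene counts of each library that fell on the 78 mitochondrial ribosomal protein genes (left) and on the cytosolic ribosomal protein genes (right), by group. Points are libraries (red hyperoxia, blue normoxia) and lines are group means. The mitochondrial share stayed between 0.301% and 0.391%, while the cytosolic share was lower in each of the 7 hyperoxia libraries than in any normoxia library.

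Under vehicle, few mitochondrial ribosomal protein genes differed between hyperoxia and normoxia. MRPL49, MRPL37, MRPL33 and MRPL1 rose and MRPS34 fell (adjusted p under 0.05 from edgeR's quasi-likelihood test, Benjamini-Hochberg over 14957 genes). These 4 higher and 1 lower of 78 members compare with 8.68% of all genes tested that were higher and 8.81% that were lower. The median log2 fold change of the members was -0.04 and that of all genes 0.01. Of the members, 61 (78.2%) changed by less than 0.5 on the log2 scale, against 55.2% of all genes. With ATRA, 5 members rose (MRPL49, MRPL37, MRPL45, MRPL12 and MRPS30) and 4 fell (MRPL50, MRPL19, MRPS21 and MRPL15), beside 11.4% higher and 11.3% lower among all genes. The members' median was 0.00, with 82.1% of them below 0.5 on the log2 scale against 57.5% of all genes. In the libraries with no named agent, 1 member rose (MRPL49) and 3 fell (MRPS23, MRPL24 and MRPS5), beside 7.57% and 7.58% of 15339 genes. There the members' median was -0.25 and that of all genes -0.10. Fitted on the 4 vehicle libraries alone, 6 members were higher and 8 lower under vehicle, beside 16.4% and 16.6% of all genes. With all 14 libraries in 6 groups 1 was higher and 1 lower, beside 4.62% and 4.64%. In each of the 3 comparisons as first given, the share of members called was below the share of all genes in both directions.

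**Figure D2:**
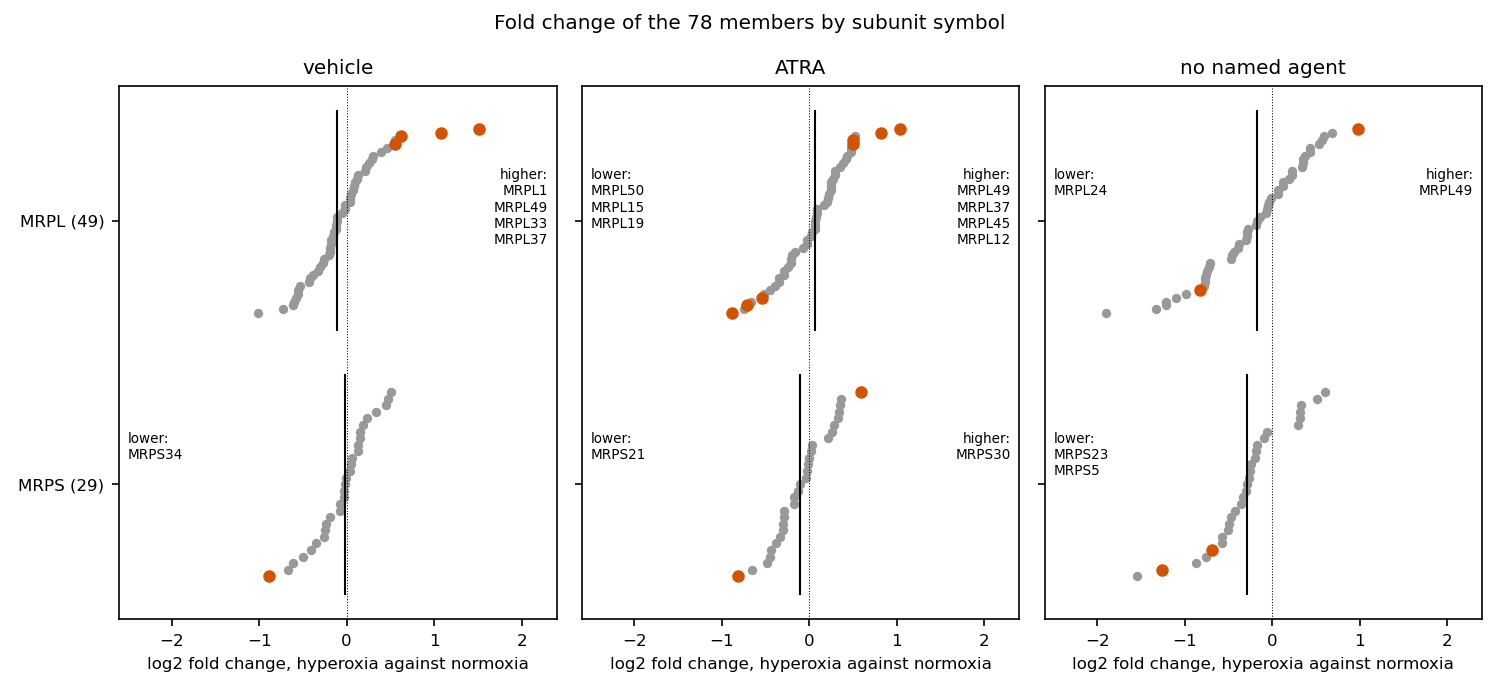
Log2 fold change in hyperoxia against normoxia of the 49 MRPL and 29 MRPS genes, ordered within each subunit, under vehicle, ATRA or no named agent. Orange points passed an adjusted p of 0.05 and are named, grey points did not, and vertical lines are medians. Most members lie near 0, and MRPL49 is named in all 3 panels.

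MRPL49 was the only member called in all 3 comparisons of oxygen levels. The share of all genes called in all 3 was not counted, so this count is no result about the members. MRPL49 encodes a large-subunit protein found only in mitochondrial ribosomes, on the + strand of chromosome 11 (chr11:65122183-65127371). Its level was 122 and 115 CPM in hyperoxia with vehicle, and 60.3 and 52.7 CPM in normoxia with vehicle. With ATRA it was 86.1, 107 and 119 CPM in hyperoxia, and 46.8, 48.3 and 56.3 CPM in normoxia. Without a named agent it was 78.3 and 114 CPM in hyperoxia, and 46.1 and 51.0 CPM in normoxia. Every one of the 7 hyperoxia libraries was above every one of the 7 normoxia libraries. The log2 fold change was 1.08 with vehicle (SE 0.18, adjusted p = 0.000189 from edgeR), a 2.11-fold difference. It was 1.04 with ATRA (SE 0.15, adjusted p = 2.88e-05) and 0.98 with no named agent (SE 0.21, adjusted p = 0.00486), both from edgeR. Leaving out each library in turn kept it between 0.95 and 1.14 with vehicle and between 0.91 and 1.17 with ATRA, always past the threshold. For no named agent it ranged from 0.64 to 1.23, and the adjusted p rose to 0.0812 without the first normoxia library. Without the hyperoxia library that stood apart it was 1.23 (adjusted p = 0.000396 from edgeR).

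The start of MRPL49 lies 187 bases from that of FAU on the opposite strand, which encodes a ubiquitin-like protein fused to cytosolic ribosomal protein S30. FAU moved the other way. Its level was 67.7 and 72.4 CPM in hyperoxia with vehicle, and 168 and 135 CPM in normoxia with vehicle. The 7 hyperoxia libraries lay between 54.6 and 87.3 CPM (median 72.4) and the 7 normoxia libraries between 94.0 and 168 CPM (median 135), with no overlap. FAU fell by 1.11 on the log2 scale with vehicle, by 0.79 with ATRA and by 0.87 with no named agent (adjusted p = 0.00035, 0.00114 and 0.0156 from edgeR). MRPL49 also overlaps SYVN1 on the opposite strand, which held 69.4% as many counts. SYVN1 had log2 fold changes of 0.22, 0.29 and 0.39 in the same 3 comparisons, none past the threshold. The library kit kept strand, but whether the counting used it is not given in the sources used here, so reads of such overlapping genes cannot be told apart.

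MRPL37, another large-subunit protein with no bacterial relative, lies on the + strand of chromosome 1 (chr1:54184041-54225464). With vehicle it was at 117 and 101 CPM in hyperoxia and 78.3 and 70.0 CPM in normoxia. With ATRA it was at 105, 111 and 85.9 CPM in hyperoxia and 57.5, 50.4 and 62.3 CPM in normoxia. Without a named agent it was at 86.5 and 115 CPM in hyperoxia and 67.1 and 68.7 CPM in normoxia. The lowest of the 7 hyperoxia libraries, at 85.9 CPM, was above the highest normoxia library, at 78.3 CPM. MRPL37 rose by a log2 fold change of 0.55 with vehicle (SE 0.17, adjusted p = 0.0298) and 0.82 with ATRA (SE 0.15, adjusted p = 0.000268), both from edgeR. With no named agent the log2 fold change was 0.57 (SE 0.19, adjusted p = 0.0539 from edgeR), and without the library that stood apart 0.76 (adjusted p = 0.0181 from edgeR). With vehicle no fit that left out 1 library kept the call, and the adjusted p reached 0.323. With ATRA every such fit kept it. The overlapping genes SSBP3 and CYB5RL on the other strand held 16.7% and 10.7% as many counts.

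MRPL33, a small protein of the large subunit with a bacterial relative, lies on the + strand of chromosome 2 (chr2:27771717-27988087). With vehicle it was at 55.0 and 55.3 CPM in hyperoxia and 37.4 and 34.6 CPM in normoxia. With ATRA it was at 45.7, 46.6 and 47.6 CPM in hyperoxia and 29.6, 40.2 and 40.0 CPM in normoxia. Without a named agent it was at 70.8 and 47.1 CPM in hyperoxia and 41.2 and 36.8 CPM in normoxia. Again all 7 hyperoxia libraries were above all 7 normoxia libraries. Its log2 fold change was 0.62 with vehicle (SE 0.21, adjusted p = 0.0458) and 0.35 with ATRA (SE 0.17, adjusted p = 0.160), both from edgeR. With no named agent it was 0.60 (SE 0.23, adjusted p = 0.0967 from edgeR), and 0.27 without the library that stood apart. The vehicle call was lost in all 4 fits without 1 library, in which the log2 fold change stayed between 0.53 and 0.64. It was also lost with DESeq2, with other scalings, without the low-count filter and with 14 libraries in 6 groups. Its interaction of oxygen and ATRA was -0.27 (SE 0.27, adjusted p = 0.9 from edgeR). BABAM2, on the same strand and overlapping MRPL33, held 132% as many counts. With no named agent BABAM2 had a log2 fold change of 0.77 (adjusted p = 0.0456 from edgeR), and 0.18 without the library that stood apart.

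MRPL49, MRPL37 and MRPL33 were the 3 members whose hyperoxia and normoxia libraries did not overlap over the 14 libraries, all of them higher in hyperoxia. Among all genes tested, 6.34% had every hyperoxia library above and 7.3% every hyperoxia library below the normoxia libraries. Without the library that stood apart, the same 3 members were higher and MRPS35, a small-subunit protein, was lower, beside 8.74% and 8.7% of all genes.

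MRPL1 and MRPS34, like MRPL33, passed the test under vehicle and not under the other agents, and whether the agents differed for them was tested by the interaction of oxygen and ATRA. MRPL1 builds the mobile L1 stalk, beside the site where spent tRNAs leave. Its level was 20.4 and 16.5 CPM in hyperoxia with vehicle, and 6.24 and 6.54 CPM in normoxia with vehicle. With ATRA it was 8.99, 3.82 and 12.2 CPM in hyperoxia and 6.5, 9.03 and 5.45 CPM in normoxia, ranges that overlap. The first of the 2 hyperoxia libraries with no named agent was at 5.58 CPM and the second at 15.6 CPM, and the normoxia libraries were at 6.81 and 7.65 CPM. The log2 fold change was 1.52 with vehicle (SE 0.49, adjusted p = 0.0336) and 0.30 with ATRA (SE 0.41, adjusted p = 0.656), both from edgeR. With no named agent it was 0.53 (adjusted p = 0.588 from edgeR), and 1.10 without the library that stood apart. The interaction had adjusted p = 0.731 from edgeR. The vehicle call was lost in all 4 fits that left out 1 library.

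MRPS34, a small-subunit protein without a bacterial relative (chr16:1771890-1773150, - strand), was at 64.0 and 67.2 CPM in hyperoxia with vehicle. In normoxia with vehicle it was at 148 and 96.9 CPM, and the first of these was the highest of the 14 libraries. With ATRA it was at 73.4, 67.9 and 85.0 CPM in hyperoxia and 84.0, 65.7 and 82.8 CPM in normoxia, so those groups overlapped. With no named agent it was at 43.5 and 79.0 CPM in hyperoxia and 88.7 and 91.4 CPM in normoxia. MRPS34 fell by 0.89 on the log2 scale with vehicle (SE 0.20, adjusted p = 0.00262 from edgeR). The log2 fold change was -0.04 with ATRA (SE 0.16, adjusted p = 0.903 from edgeR). With no named agent it was -0.57 (SE 0.25, adjusted p = 0.143 from edgeR), and -0.19 without the library that stood apart. Without the high normoxia library the vehicle value was -0.59 (adjusted p = 0.111 from edgeR). The interaction was 0.85 on the log2 scale (SE 0.25, unadjusted p = 0.00307 and adjusted p = 0.343 from edgeR), the only member under an unadjusted p of 0.05. EME2 on the other strand held 11.5% as many counts, with log2 fold changes of 1.49, 1.07 and 3.03 under vehicle, ATRA and no named agent (0.85 without the library that stood apart).

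**Figure D3:**
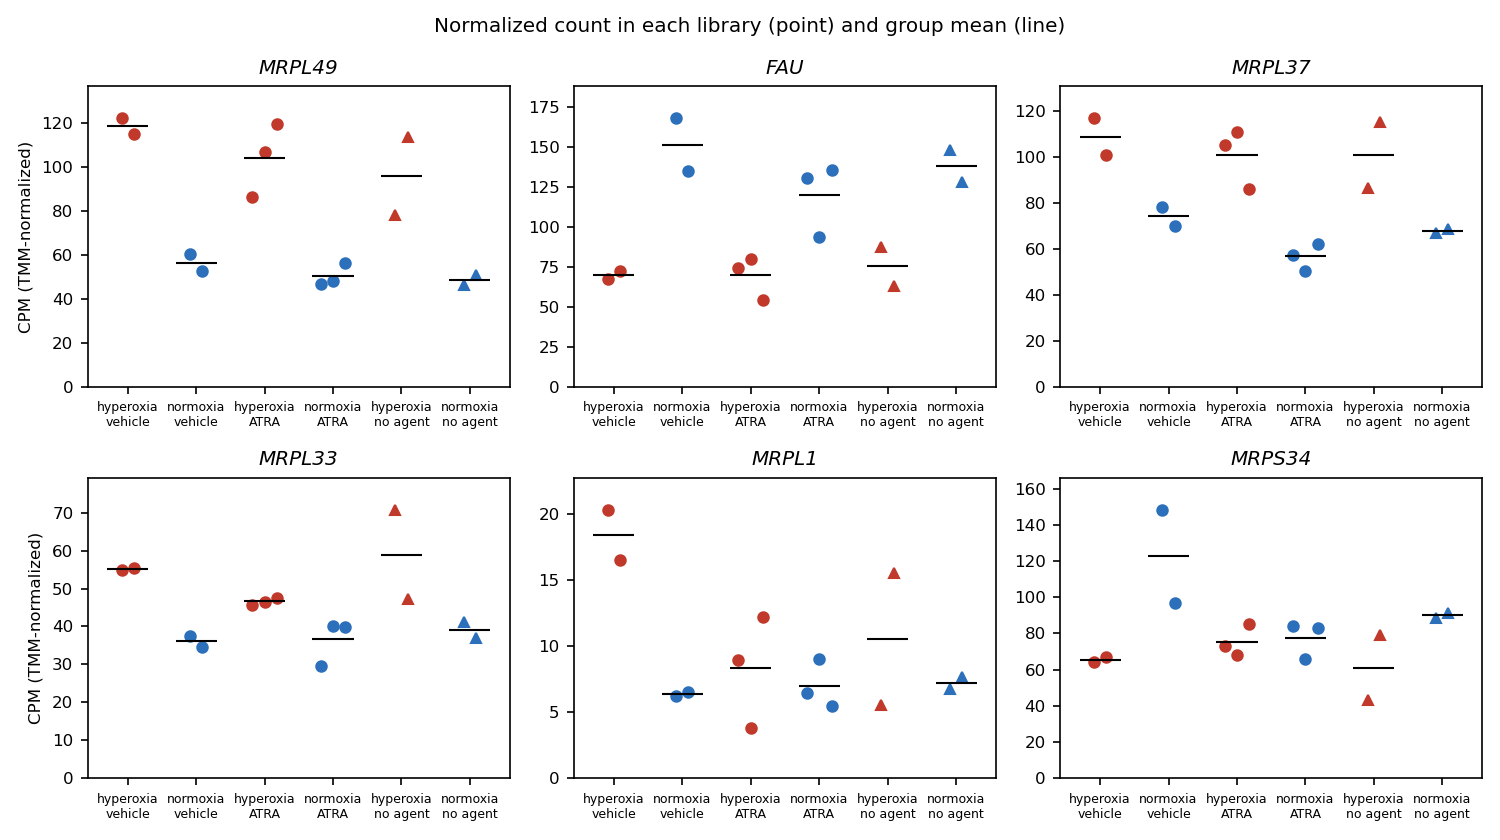
CPM after TMM normalization in each of the 14 labelled libraries (points, red hyperoxia, blue normoxia, triangles no named agent) for 5 members and for FAU, the neighbour of MRPL49. Lines are group means. For MRPL49, MRPL37 and MRPL33 the red points lie above the blue ones, for FAU below them, and for MRPL1 and MRPS34 they overlap.

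With ATRA, further members passed the test with smaller differences. MRPL45, which tethers the exit of the peptide tunnel to the inner membrane, was at 67.1, 80.1 and 78.6 CPM in hyperoxia and 53.1, 52.6 and 52.9 CPM in normoxia. It rose by a log2 fold change of 0.50 (SE 0.14, adjusted p = 0.0126 from edgeR), and these groups did not overlap. MRPL12 was at 128, 130 and 119 CPM in hyperoxia and 80.9, 74.4 and 110 CPM in normoxia. Its rise was also 0.50 (SE 0.14, adjusted p = 0.0138 from edgeR), whereas under vehicle its log2 fold change was 0.05 (adjusted p = 0.9). MRPS30 rose by 0.59 (SE 0.21, adjusted p = 0.0480 from edgeR), from 25, 19.0 and 27.5 CPM to 42.4, 29.4 and 35.1 CPM. Among the members that fell, MRPL50 was at 10.6, 11.8 and 12.5 CPM in hyperoxia and 19.0, 25.2 and 20.2 CPM in normoxia. MRPL50, found only in mitochondrial ribosomes, fell by 0.88 (SE 0.27, adjusted p = 0.0194 from edgeR). MRPL19 fell by 0.54 (adjusted p = 0.0266), MRPS21 by 0.82 (adjusted p = 0.0288) and MRPL15 by 0.71 (adjusted p = 0.0298), all from edgeR and all with relatives in bacteria. MRPL19 overlaps GCFC2 on the other strand, which held 145% as many counts and had a log2 fold change of -0.51. Of the 6 fits that left out 1 ATRA library each, MRPL45 and MRPL50 kept the call in 5, MRPL12, MRPL19 and MRPL15 in 3, and MRPS21 and MRPS30 in 1.

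In the comparison with no named agent, the lower members depended on the library that stood apart. MRPS23, a small-subunit protein, was at 14.2 CPM in that library and 35.7 CPM in the other hyperoxia library, against 62.8 and 54.3 CPM in normoxia. It fell by 1.26 on the log2 scale (SE 0.34, adjusted p = 0.0218 from edgeR), and without that library the value was -0.72 (adjusted p = 0.138 from edgeR). MRPL24, at the peptide exit, fell by 0.82 (SE 0.24, adjusted p = 0.0281 from edgeR), and the small-subunit protein MRPS5 fell by 0.69 (SE 0.20, adjusted p = 0.0277 from edgeR). Without that library their values were -0.49 and -0.47, neither past the threshold. Without it, 4 members were called, all higher (MRPL37, MRPL38, MRPL45 and MRPL49), beside 5.36% higher and 5.14% lower among all genes, and the median of the members was -0.13. Without the other hyperoxia library, 5 members were higher and 30 lower, beside 14.5% and 29.1% of all genes, and the median was -0.44 for the members and -0.46 for all genes.

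A single oxygen effect over all 14 labelled libraries, with the agent as an additive term, gave more calls. In that fit 9 members were higher and 10 lower, beside 15.4% higher and 14.8% lower among 15339 genes. The higher members were MRPL49 (log2 fold change 1.03, SE 0.11), MRPL37 (0.67, SE 0.10), MRPL33, MRPL45, MRPL38, MRPS30, MRPL18, MRPL9 and MRPS33. MRPL38 and MRPL18 belong to the central protuberance, where the subunits meet above the tunnel entrance, as does MRPL48, which was lower. Of the 7 members listed for that structure, 2 were higher and 1 was lower. Lower were MRPL24 (-0.55, SE 0.13), MRPS5, MRPS21, MRPL17, MRPL15, MRPL48, MRPL16, MRPL19, MRPS34 and MRPL51. Apart from MRPL49, their log2 fold changes ran from -0.73 for MRPL16 to 0.67 for MRPL37. MRPL51 and MRPL9 overlap NCAPD2 and OAZ3 on the opposite strand, which held 185% and 35.2% as many counts. All 19 called members kept their call and direction without the library that stood apart. There 13 members were higher and 13 lower, beside 18.2% and 17.8% of all genes. By symbol, 7 MRPL genes were higher and 7 lower, and 2 MRPS genes were higher and 3 lower.

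By structural class, the counts under vehicle stand beside 8.68% higher and 8.81% lower among all genes, and those with ATRA beside 11.4% and 11.3%. Of 30 large-subunit proteins with bacterial relatives, 2 rose and 0 fell (median -0.08), and of 21 large-subunit proteins particular to mitochondria, 2 rose and 0 fell (median -0.11). Among small-subunit proteins, 0 of 16 with bacterial relatives were called, with 1 at an unadjusted p under 0.05 (median -0.02), and 1 of 10 particular to mitochondria fell (median -0.11). The share of all genes under that unadjusted p is not given here for comparisons of oxygen levels. With ATRA, 4 of the 21 mitochondria-specific large-subunit proteins rose and 1 fell (median 0.20), and 16 of the 21 values were above 0. In the small subunit with ATRA, 9 of the 10 mitochondria-specific values were below 0 (median -0.18), and none was called. In the stalks, MRPL11, MRPL10 and MRPL53 had vehicle log2 fold changes of -0.15, 0.11 and -0.19, beside the 1.52 of MRPL1 and the 0.05 of MRPL12. Around the tunnel exit, MRPL22, MRPL23, MRPL24, MRPL44 and MRPL45 ranged from -0.55 to 0.21 with vehicle, and none was called there. MRPL23 was low, at 0.382 to 9.97 CPM, with an SE of 0.92. The MRPS18 paralogs are related proteins of which the mitochondrial ribosome holds several. In the classes above, MRPS18A and MRPS18B were counted as particular to mitochondria and MRPS18C as having a bacterial relative. Those classes thus do not separate all proteins by descent. MRPS18A had vehicle log2 fold changes of 0.23, MRPS18B of 0.05 and MRPS18C of -0.50, and none was called in the 3 comparisons of oxygen levels. In the single oxygen effect without the library that stood apart, MRPS18A was higher (log2 fold change 0.36, adjusted p = 0.0360 from edgeR). With no named agent and without the second hyperoxia library, all 3 paralogs were lower, in a fit that rests on the library that stood apart.

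The steadiest members under vehicle were MRPS7, MRPL47 and MRPS12, with log2 fold changes of -0.01, -0.02 and -0.02. MRPS7, whose bacterial relative starts assembly of the head of the small subunit, was at 93.3 and 88.7 CPM in hyperoxia and 96.7 and 87.2 CPM in normoxia. In the library that stood apart it was at 22.1 CPM, the lowest of the 14. MRPS12 was at 107 and 110 CPM in hyperoxia with vehicle and 120 and 102 CPM in normoxia. MRPL47 was steady by its mean only, with an SE of 0.40 at 16.6 to 23.9 CPM.

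ATRA against vehicle addressed whether the retinoid moved these genes at either oxygen level. In hyperoxia, edgeR called 0 of 78 members and DESeq2 0, and 11 were under an unadjusted p of 0.05, all lower with ATRA. Among all genes 2.21% were called, 13.5% were under that unadjusted p, and 6.18% were under it and lower. In normoxia, edgeR called 0 and DESeq2 called 1, lower, and 8 were under an unadjusted p of 0.05, all lower. Among all genes 1.25% were called, 8.79% were under that unadjusted p, and 3.84% were under it and lower. Medians were -0.15 in hyperoxia and -0.20 in normoxia, with all genes at 0.00 in both, and 57 and 61 of the 78 values were below 0. In normoxia MRPS34 had the smallest p, with a log2 fold change of -0.65 (SE 0.18, adjusted p = 0.0867 from edgeR), followed by MRPS12 at -0.51 (adjusted p = 0.167) and MRPL12 at -0.49 (adjusted p = 0.199). In hyperoxia it was MRPL19, at -0.58 (SE 0.19, adjusted p = 0.137 from edgeR). Against the libraries with no named agent, ATRA gave medians of 0.05 in hyperoxia (all genes 0.10) and -0.14 in normoxia (all genes -0.01). Without the library that stood apart, the hyperoxia median was -0.12 (all genes 0.02). Against those libraries edgeR called 0 members at either oxygen level, beside 0.43% and 0.437% of all genes, and DESeq2 was not run. Under an unadjusted p of 0.05 were 11 (14.1%) and 1 (1.28%) of the members, beside 17.2% and 5.2% of all genes. The interaction of oxygen and ATRA was called by edgeR and by DESeq2 for 0 members, beside 0.14% of all genes with edgeR. Under an unadjusted p of 0.05 was 1 member (1.28%), beside 7.21% of all genes.

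The cytosolic ribosomal protein genes, which build the ribosomes that make the mitochondrial ribosomal proteins, showed other values in the same libraries. Of 85 tested, 3 rose and 62 fell under vehicle (median -0.67), 1 rose and 62 fell with ATRA (median -0.57), and 0 rose and 58 fell with no named agent (median -0.74). This was 55 lower without the library that stood apart (median -0.84). Of 74 nuclear genes for respiratory chain and ATP synthase subunits, whose partners the mitochondrial ribosome makes, 1 rose and 10 fell under vehicle (median -0.16). With ATRA 5 rose and 10 fell (median -0.04), and with no named agent 2 rose and 8 fell (median -0.22). These were 0 and 3 without the library that stood apart (median -0.21). Among all genes, 8.68% rose and 8.81% fell under vehicle, 11.4% and 11.3% with ATRA, and 7.57% and 7.58% with no named agent.

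**Figure D4:**
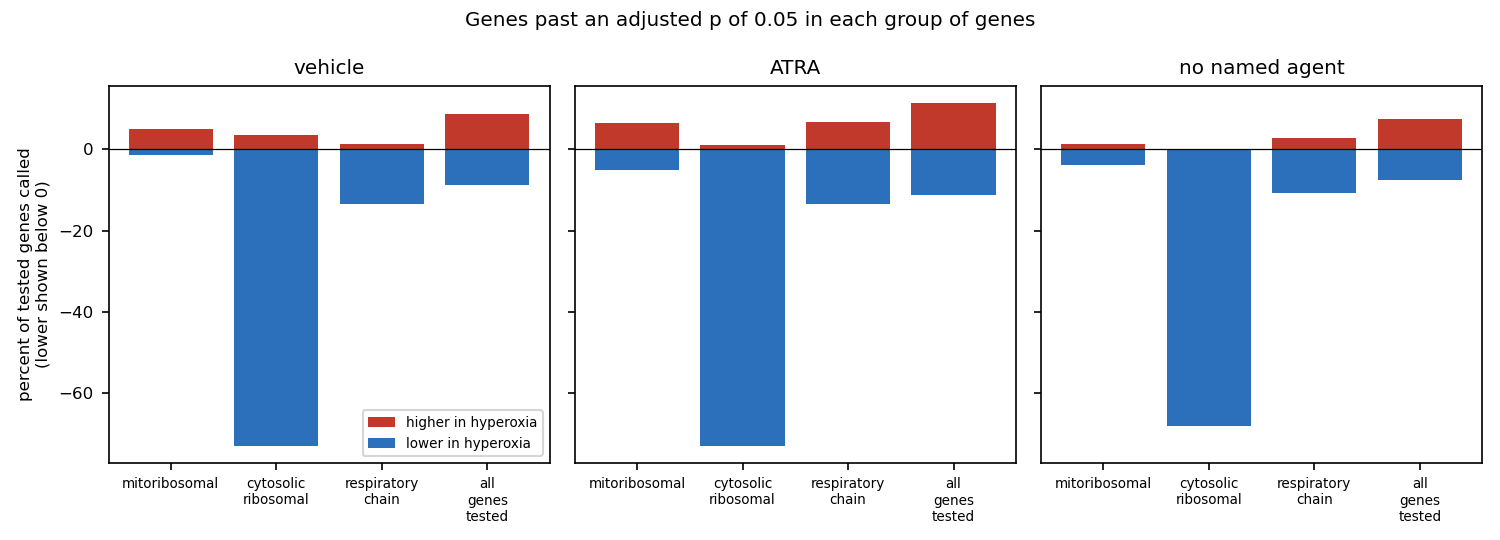
Percent of tested genes called higher (red, above 0) or lower (blue, below 0) in hyperoxia for the mitochondrial ribosomal protein genes, the cytosolic ribosomal protein genes, the respiratory chain subunit genes and all genes, under each agent. The mitochondrial bars are shorter than those of all genes, and the cytosolic bars extend below 0, with 62, 62 and 58 of 85 genes lower.

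The starts of 26 members lay head to head with another gene, within 990 bases. MRPL46 and MRPS11, 1 of each subunit, share a start region of 320 bases, and neither passed the test in the 3 comparisons of oxygen levels. Of 24 partners outside the family that were tested, 3 rose and 5 fell under vehicle, beside 8.68% and 8.81% of all genes. Under all 3 agents 4 partners fell, namely FAU and the partners of MRPL51, MRPL18 and MRPL57, and the partners of MRPS18B and MRPL14 rose. The share of all genes called under all 3 agents was not counted, so these counts are no result about the partners. NCAPD2, a condensin subunit beside MRPL51, had log2 fold changes of -2.03, -1.81 and -2.80, while MRPL51 was at -0.25, -0.21 and -0.39. NCAPD2 also overlaps MRPL51 and held 185% as many counts, so reads of this pair cannot be told apart. TCP1, a chaperonin subunit beside MRPL18, was at -0.60, -0.65 and -0.77, while MRPL18 was at 0.25, 0.52 and 0.38. SKA3 beside MRPL57 was at -1.50, -1.11 and -2.24. PPP1R10 beside MRPS18B was at 1.31, 0.97 and 1.49, while MRPS18B was at 0.05, -0.18 and -0.26. TMEM63B beside MRPL14 was at 0.69, 1.13 and 0.83. These pairs were chosen after their values were seen. Without the library that stood apart, the values with no named agent were -1.13 for FAU, -2.12 for NCAPD2, -0.91 for TCP1, 1.51 for PPP1R10 and 0.95 for TMEM63B, all past the threshold, and -1.28 for SKA3, which was not (adjusted p = 0.0587 from edgeR). Of the 78 members, 25 overlap another gene that held at least 10% as many counts, 20 of them on the opposite strand. Among the 53 others, 1 rose and 0 fell under vehicle, beside 8.68% and 8.81% of all genes. With ATRA 3 rose and 3 fell, beside 11.4% and 11.3%. With no named agent 0 rose and 3 fell, beside 7.57% and 7.58%. Their median log2 fold change there was -0.18, and -0.17 without the library that stood apart.

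Genes that act with the mitochondrial ribosome were taken from lists of its other subunits, assembly factors, translation factors, tRNA synthetases and the transcription and biogenesis of mitochondria. Of 5 subunits with other symbols, AURKAIP1 fell under vehicle by 0.78 (adjusted p = 0.0150 from edgeR) and PTCD3 fell with ATRA by 0.47 (adjusted p = 0.0498 from edgeR). DAP3, GADD45GIP1 and CHCHD1 were not called. None of 27 assembly factors was called by edgeR under vehicle or ATRA. Among all genes, 8.68% were higher and 8.81% lower under vehicle, and 11.4% and 11.3% with ATRA. Under an unadjusted p of 0.05 were 2 and 4 of these factors. The share of all genes under that unadjusted p is not given here for comparisons of oxygen levels. With no named agent ERAL1, which chaperones the small ribosomal RNA, and the GTPase MTG2 rose, by 1.05 and 1.30. They were at 0.57 and 0.69 without the library that stood apart, and neither passed (adjusted p = 0.109 and 0.138 from edgeR). Of 16 translation factors and messenger RNA binding proteins, SLIRP fell under all 3 agents, by 1.01, 0.66 and 2.28 (adjusted p = 0.00807, 0.0311 and 0.000532 from edgeR). Its value with no named agent was -1.80 without the library that stood apart (adjusted p = 0.00118 from edgeR). It stabilises mitochondrial messages together with LRPPRC, which had log2 fold changes of 0.39, 0.12 and 0.05. The elongation factor gene TSFM fell by 1.14 with vehicle and 0.74 with ATRA. With no named agent its log2 fold change was -0.49 (adjusted p = 0.472 from edgeR), and -1.65 without the library that stood apart. With ATRA the counts over this list were 2 higher (12.5%) and 4 lower (25%), beside 11.4% and 11.3% of all genes.

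Among 20 genes for mitochondrial aminoacyl-tRNA synthesis, 1 rose and 2 fell under vehicle, with 15 values below 0 (median -0.24). CARS2 rose by 0.73 and EARS2 fell by 0.65. With ATRA 1 rose and 3 fell, and with no named agent 0 rose and 1 fell (2 fell without the library that stood apart). Among all genes, 8.68% rose and 8.81% fell under vehicle, 11.4% and 11.3% with ATRA, and 7.57% and 7.58% with no named agent. Of 15 genes for mitochondrial transcription and biogenesis, POLRMT, the mitochondrial RNA polymerase, fell by 0.96 under vehicle and by 1.63 with no named agent. MYC rose by 0.58 under vehicle, and ESRRA rose by 0.63 with ATRA and 1.31 with no named agent. Without the library that stood apart, the values with no named agent were -1.30 for POLRMT and 0.82 for ESRRA, both past the threshold. The mitochondrial ribosomal RNAs RNR1 and RNR2 had vehicle log2 fold changes of -0.18 and 0.06. RNR1, of the small subunit, fell by 0.38 with ATRA (adjusted p = 0.0306 from edgeR).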

How the data were processed

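RNA-seq libraries of A549 cells were compared across 6 labelled groups (14 libraries). Per the labels' processing notes and the study's methods, the authors deposited raw counts per gene symbol made with HTSeq from HISAT2 alignments to hg38, after trimming by Trimmomatic 0.38, and their notes also name DESeq2. The annotation release and the strand and overlap settings are not given in the sources used here. Rows that name no gene were left out of totals and tests.

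Counts were filtered with filterByExpr (minimum count 10, minimum total 15), normalized by TMM and tested with edgeR 4.0.16 (quasi-likelihood, R 4.3.3, limma 3.58.1). The vehicle and ATRA groups shared one fit (10 libraries, 14957 genes), and comparisons with no named agent came from 14 libraries (15339 genes). Benjamini-Hochberg adjustment covered all genes tested, at 0.05. Scripts were tested on simulated data. Alternatives were DESeq2 1.42.0, no low-count filter, other sets of libraries, additive terms and each library left out. Those added after seeing the data were the libraries with no named agent as the control, and the additive, non-overlap and gene list results without the library that stood apart. Members with values were those past the threshold by p, the 5 highest and the 5 lowest per kilobase, the least changed, and list members. The members and lists were chosen with earlier results of these data known. Positions came from GENCODE 44 and promoters from RefSeq (GRCh38.p14). Plots and summaries used Python 3.11.15, pandas 2.3.3 and matplotlib 3.10.9. The 1 library with conflicting labels was not used in any comparison. The values of 1 gene of the pathway lists are not reported here.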

Additional observations from a re-analysis of the deposited data

How the results depend on the processing

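The number of members called changed with the libraries and the settings, and so did the share of all genes called. As first given, that share was 8.68% higher and 8.81% lower under vehicle. It was 11.4% and 11.3% with ATRA, and 7.57% and 7.58% with no named agent. Under vehicle it was 16.4% and 16.6% with the groups compared alone, and 4.62% and 4.64% with 14 libraries in 6 groups. For the single oxygen effect it was 15.4% and 14.8%. For the 35 calls below it is given above. Counts alone are no result about the members. No member past the threshold in a comparison of oxygen levels changed sign in that comparison under the alternatives run. Under vehicle, 5 members were called. This became 14 with the groups compared alone, and 2 with 14 libraries in 6 groups. A single oxygen effect over 14 libraries with agent as an additive term, which changes both the libraries and the model and is no vehicle comparison, called 19, and 26 without the hyperoxia library that stood apart, an alternative chosen after seeing the data. Leaving out each vehicle library gave 1 to 3 (1 without the first normoxia library). Under ATRA, 9 were called, 2 with 14 libraries in 6 groups, and 4 to 11 with each library left out (4 without the second normoxia library). With no named agent, 4 were called, 7 by DESeq2, 8 without the low-count filter, 0 with only the groups compared, and 0 to 35 with each library left out (0 without the first normoxia library, 1 without the second and 35 without the second hyperoxia library). For ATRA against vehicle in hyperoxia 0 became 1 without the low-count filter, and 0 to 1 with each library left out. In normoxia 0 became 1 with DESeq2 and 1 without that filter, and 0 to 1 with each library left out. The cause of these shifts was not tested. Members not called as first given could take either sign, such as MRPS7, lower without the second hyperoxia library with no named agent and at 0.19 without the first. The interaction had 0 calls in every alternative run. The median under vehicle was -0.16 without the second normoxia library. No paired analysis was possible because the library numbers in the labels are unique, so the groups share no replicate number.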
